A study of Mus musculus with 4 samples.

Results

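The integrated stress response and the unfolded protein response were followed through 10 genes: the transcription factors Atf3, Atf4, Ddit3 and Xbp1, the ATF4 targets Trib3, Asns and Chac1, and the endoplasmic reticulum (ER) genes Herpud1, Sdf2l1 and Pdia4. They were taken by gene symbol from the annotation of the array, which gave 15 probes of 46632 on the array, for 10 of 17708 named genes. Of the 15 probes, 14 were detected on at least 1 array and 12 on all 4, and each of the 10 genes had a probe detected on all 4 arrays. Detection means a deposited score whose complement, the detection p, was under 0.01.

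The cells were mouse embryonic fibroblasts (MEFs), connective-tissue cells cultured from embryos, described in the labels as a MEF cell line of strain C57BL/6. They were either wild type (WT) or STAT3KO, lacking Stat3, which encodes a transcription factor that cytokine signals switch on. Cells of both genotypes were harvested without treatment or after 2 h with IFNa (1000 U/ml), an antiviral cytokine of the type I family. This makes 4 groups with a single Illumina bead array each and no replicates, and a run of 4 log2 intensities below always follows the order WT without IFNa, WT with IFNa, STAT3KO without IFNa, STAT3KO with IFNa (the array order). The labels do not say how Stat3 was deleted, or whether a genotype was more than 1 line. The 4 arrays carry the same chip number in the labels and differ in position on it, so position and group cannot be told apart. A note in the deposited intensity table says that its WT column without IFNa holds normalized data, unlike the other 3, and the differences below that use it start from that column. In the authors' normalized values, used as an alternative, all 4 arrays were normalized and share the same median intensity.

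In the integrated stress response, kinases that sense amino acid shortage, viral RNA, haem shortage or ER stress phosphorylate the translation factor eIF2. Most translation then falls while that of ATF4 rises, and ATF4 switches on genes of amino acid supply and, with prolonged stress, the factor CHOP, the product of Ddit3. In the unfolded protein response, the ER sensors PERK, IRE1 and ATF6 act in parallel: PERK belongs to the eIF2 kinases, IRE1 splices the Xbp1 transcript, and ATF6 and spliced XBP1 raise ER chaperones and the ER degradation machinery. The kinase that senses viral RNA, PKR (Eif2ak2), is itself an interferon-induced gene. An array reads transcript level, so neither the phosphorylation of eIF2, the translation of Atf4 nor the splicing of Xbp1 was measured. In RNA from whole cultures, fewer cells expressing a gene and less RNA per cell cannot be told apart.

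Promoter windows of these genes are shown as a description of their sequences. A window of 300 bases (250 before the gene start and 50 after it) was available from RefSeq for all 10 genes, on build GRCm38.p6. The C/EBP-ATF response element, at which ATF4 is known to act, was searched as TGATGNAA on both strands and was found in the windows of Asns, Chac1, Herpud1, Atf3 and Trib3, 5 of 10, against 3.97% of 32851 windows of all genes. Known ATF4 targets are among the 10 genes, so this share follows in part from their choice and is no result of the arrays. The second ER stress response element, ERSE-II, searched on both strands as ATTGG, any base and CCACG, was found in that of Herpud1 and in 0.0365% of all windows, and it did not overlap the first motif. In the sequences below capitals mark these matches. The windows are those of Asns at chr6:7693160-7693459 (minus strand), Chac1 at chr2:119350992-119351291 (plus strand), Herpud1 at chr8:94386179-94386478 (plus strand), Atf3 at chr1:191183284-191183583 (minus strand) and Trib3 at chr2:152344011-152344310 (minus strand), each written 5′ to 3′ on the strand of its gene.
Asns: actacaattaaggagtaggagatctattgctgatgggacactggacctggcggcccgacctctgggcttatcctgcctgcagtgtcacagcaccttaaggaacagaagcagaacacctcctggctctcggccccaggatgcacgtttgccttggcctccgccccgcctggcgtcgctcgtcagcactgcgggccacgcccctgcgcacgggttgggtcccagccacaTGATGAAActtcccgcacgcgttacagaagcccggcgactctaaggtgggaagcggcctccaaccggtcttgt
Chac1: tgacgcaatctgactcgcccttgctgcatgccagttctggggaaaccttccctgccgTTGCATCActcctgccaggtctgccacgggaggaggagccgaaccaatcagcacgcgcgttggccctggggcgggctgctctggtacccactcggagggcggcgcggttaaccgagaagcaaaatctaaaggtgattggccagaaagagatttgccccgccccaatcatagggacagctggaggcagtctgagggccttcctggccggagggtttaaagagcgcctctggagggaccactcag
Herpud1: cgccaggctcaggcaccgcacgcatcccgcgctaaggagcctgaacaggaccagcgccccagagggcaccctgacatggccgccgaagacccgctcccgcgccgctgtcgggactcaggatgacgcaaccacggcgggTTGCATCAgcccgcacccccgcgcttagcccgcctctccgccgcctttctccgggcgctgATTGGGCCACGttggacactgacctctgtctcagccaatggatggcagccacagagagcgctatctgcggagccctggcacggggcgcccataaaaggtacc
Atf3: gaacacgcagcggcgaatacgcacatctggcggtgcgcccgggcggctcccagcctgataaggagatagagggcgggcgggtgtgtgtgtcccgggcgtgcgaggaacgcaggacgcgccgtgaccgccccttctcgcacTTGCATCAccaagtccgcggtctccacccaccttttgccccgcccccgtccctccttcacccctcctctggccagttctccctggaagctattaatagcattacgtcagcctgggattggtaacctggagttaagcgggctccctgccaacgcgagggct
Trib3: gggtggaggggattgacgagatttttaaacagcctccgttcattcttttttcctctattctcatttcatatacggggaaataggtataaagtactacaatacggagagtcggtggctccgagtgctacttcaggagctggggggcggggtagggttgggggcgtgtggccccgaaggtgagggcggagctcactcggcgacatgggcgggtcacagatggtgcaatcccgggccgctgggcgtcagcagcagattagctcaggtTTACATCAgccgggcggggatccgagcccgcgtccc
The match began 23 bases before the gene start in Asns, 193 in Chac1, 112 in Herpud1 and 110 in Atf3, and at base 15 of the transcript in Trib3. The other searches made no match in any of the 10 windows. These were ERSE as CCAAT and CCACG with 9 bases between them (0.119% of all windows), the cAMP response element as TGACGTCA (1.79%), the UPR element core as TGACGTGG (0.676%), a STAT site as TTCCNGGAA (1.15%) and the interferon-stimulated response element as GAAA repeated after 2 bases (3.44%). A match is a description of letters and not a measured site, and its absence says only that these letters are not in this window.

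The arrays detected between 16076 and 17524 probes each. Stat3 itself was 18.2-fold lower in STAT3KO than in WT without IFNa and 28.9-fold lower with it on the brighter of its 2 probes (ILMN_2698046) (log2 10.75, 11.01, 6.56 and 6.16). Both its probes were still detected in STAT3KO, and whether they lie in the deleted part is not known. The lines also differed in fibroblast markers: of 9 detected, 7 were lower in STAT3KO and none higher, against 20.0% and 23.1% of all genes. The summed intensity of the 9, weighted to the brightest such as Vim, was 91020 and 83380 on the WT arrays against 49710 and 55740 on the STAT3KO arrays. Thy1 was not detected in STAT3KO. On the brightest probes the mean log2 differences were -6.56 for Col1a2, -5.04 for Dcn, -4.13 for Pdgfra, -3.75 for Col1a1, -3.47 for Pdgfrb and -0.40 for Col3a1. Another Pdgfra probe was at 0.01, and S100a4, at -0.30, was not called. Vim, at 15.29, 15.12, 15.11 and 15.26, had a mean difference of -0.02 ± 0.19. No macrophage marker was detected among 5, and of 7 epithelial markers only Krt19 was detected on all 4 arrays. The endothelial markers gave 1 to 3 detected genes of 6 per array and no call. Of 3 pluripotency markers Pou5f1 and Lin28a were not detected, while Nanog was higher in STAT3KO. The part of these differences in the results below was not tested.

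**Figure D1:**
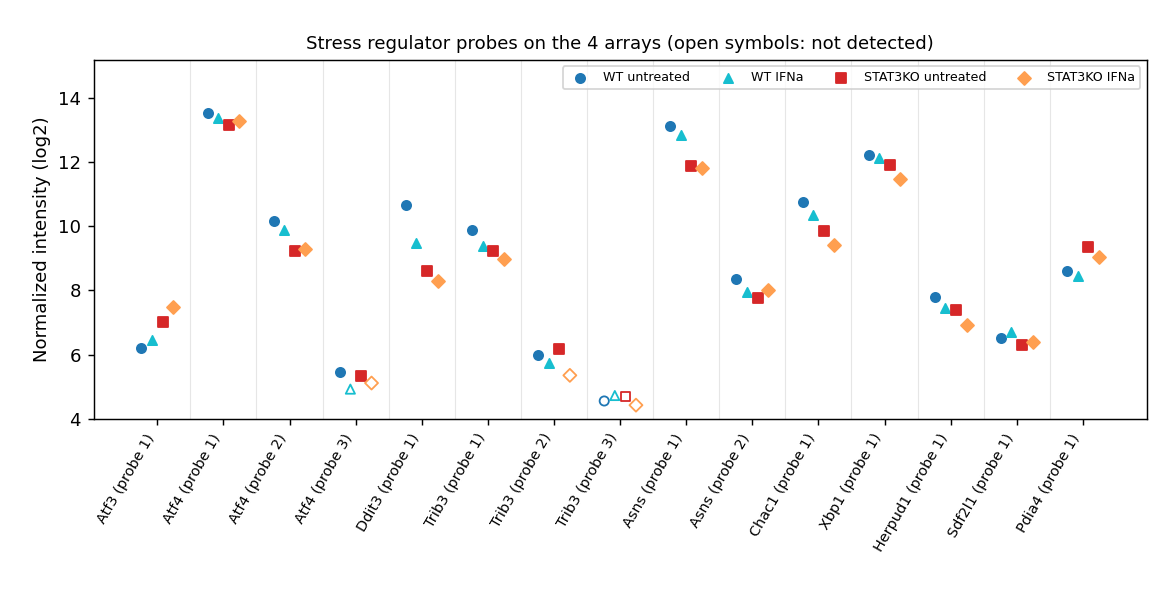
Normalized log2 intensity (vertical axis) of all 15 probes of the 10 stress genes on the 4 arrays, 1 point per array, with open symbols where the probe was not detected. Ddit3 spans from 10.68 to 8.30, while Atf3 and Pdia4 lie higher on the STAT3KO arrays.

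The genotypes were compared first, as STAT3KO minus WT over both treatments. Ddit3, Asns, Chac1, Trib3 and Xbp1 were lower in STAT3KO and Atf3 and Pdia4 higher, while Atf4, Herpud1 and Sdf2l1 did not pass the test on their brightest probes. Thus 5 of 10 genes were called lower and 2 higher, where 20.0% and 23.1% of all 10515 detected genes were. The 10 genes were chosen with earlier results of these data known. No count or median of them set beside all genes is therefore an independent test. By probe, 6 of 14 were called lower and 2 higher, against 17.0% and 18.8% of all 19656 tested (35.8% in either direction). The lines differed broadly, and a call in 7 of 10 stands beside 43.1% over all genes. These shares were not matched for intensity: the median log2 intensity was 9.32 over the 10 genes and 8.16 over all genes tested. The median difference was -0.47 over the 10 genes and 0.02 over all genes, on the log2 scale. The test was limma with an additive model of genotype and treatment, adjusted by Benjamini-Hochberg over 19656 probes. It estimated an infinite number of prior degrees of freedom, so each probe's own spread carried no weight in its p-value, and no spread between replicate samples entered. The very small p-values below therefore describe the fit to these 4 arrays.

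Ddit3 encodes CHOP, a transcription factor of prolonged ER stress that favours cell death, and it had the widest range of the 10 genes. Its probe (ILMN_2652909) stood at log2 intensities of 10.68, 9.49, 8.61 and 8.30 in array order. Both STAT3KO arrays lay below both WT arrays. The difference was 4.20-fold without IFNa and 2.27-fold with it, with a mean of -1.63 ± 0.15 (log2, limma SE, adjusted p = 4.63e-25). It was called under all 8 alternative settings, with adjusted p from 5.88e-26 to 0.0308.

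Atf4 encodes the factor through which the integrated stress response acts on transcription. Its brightest probe (ILMN_2642681) was at 13.53, 13.38, 13.18 and 13.28 in array order, a mean difference of -0.23 ± 0.14 (log2, limma adjusted p = 0.244). A second probe (ILMN_1223734) was at 10.17, 9.88, 9.22 and 9.30 and was called lower, by -0.77 ± 0.14 (log2, adjusted p = 6.69e-07). Both probes were higher on each WT array than on either STAT3KO array, but they gave differences of unlike size, and only the second passed the test. Its call was lost with scaling to the 75th percentile (adjusted p = 0.502) and without the intensity trend (0.0774). The third probe (ILMN_1232872) was detected on the untreated arrays alone, with detection scores of 0.99484, 0.89954, 1.0 and 0.9487, and its mean difference was 0.02 ± 0.42.

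Atf3, a stress-induced repressor and activator that ATF4 and CHOP can induce, ran the other way. Its probe (ILMN_2619408) was at 6.20, 6.45, 7.01 and 7.49 in array order. The STAT3KO arrays were both above the WT arrays, by 1.75-fold without IFNa and 2.06-fold with it. The mean was 0.92 ± 0.31 (log2, limma adjusted p = 0.00993). The size depends on the scale at this low intensity: it was 0.38 in the authors' normalized values. The call was lost under 75th-percentile scaling (adjusted p = 0.073).

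Of the ATF4 targets, Asns makes asparagine, Chac1 degrades glutathione, and Trib3 is a pseudokinase that restrains ATF4 and CHOP. The brightest Asns probe (ILMN_2643513) was at 13.13 and 12.84 in WT and at 11.88 and 11.82 in STAT3KO. The untreated arrays differed 2.37-fold and the IFNa arrays 2.04-fold, a mean of -1.14 ± 0.13 (log2, limma adjusted p = 2.22e-16). Its other probe (ILMN_2636755) was at 8.36, 7.95, 7.75 and 8.02, so that the STAT3KO arrays overlapped the WT arrays, and its mean of -0.27 ± 0.21 was not called (adjusted p = 0.356). The Asns probes therefore disagree in size.

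Chac1 (ILMN_2617468) was at 10.77 and 10.36 in WT and at 9.86 and 9.43 in STAT3KO. It was 1.89-fold lower in STAT3KO without IFNa and 1.90-fold lower with it, while scaling to the 75th percentile gave unlike log2 differences of -0.57 and -1.25. The mean was -0.92 ± 0.14 (log2, limma adjusted p = 1.1e-10). With scaling to the 75th percentile the Asns call was lost at an adjusted p of 0.0556 and that of Chac1 at 0.361, and the directions were kept.

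The brightest Trib3 probe (ILMN_1225528) was at 9.89 and 9.39 in WT and at 9.22 and 8.98 in STAT3KO. Its mean difference was -0.54 ± 0.15 (log2, limma adjusted p = 0.00127), and the pairs of arrays differed 1.59-fold and 1.33-fold. The call was lost with scaling to the 75th percentile (adjusted p = 0.723) and without the intensity trend (0.139). The second Trib3 probe (ILMN_1244279) was at 6.00, 5.72, 6.18 and 5.35, was not detected in STAT3KO IFNa (detection score 0.98247) and was not called. The third (ILMN_1252762) was detected on no array, with scores of 0.57419, 0.79974, 0.78816 and 0.26818, so it has no measured level.

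Xbp1 encodes the factor made active by IRE1, and with ATF6 it is known to act on Herpud1, a part of the ER degradation machinery, Sdf2l1, a cofactor of ER chaperones, and Pdia4, a disulfide isomerase. Xbp1 (ILMN_2431237) was at 12.23, 12.13, 11.93 and 11.49 in array order, with both STAT3KO arrays lowest. Its mean difference was -0.48 ± 0.13 (log2, limma adjusted p = 0.00103), lost with scaling to the 75th percentile (adjusted p = 0.646) and without the intensity trend (0.187). The probe cannot be assigned to the spliced or the unspliced form.

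Herpud1 (ILMN_2604741) was at 7.81, 7.45, 7.39 and 6.93 in array order, which is 1.34-fold and 1.43-fold lower in STAT3KO, but its mean of -0.47 ± 0.26 was not called (limma adjusted p = 0.155). Sdf2l1 (ILMN_1221943), at 6.53, 6.71, 6.29 and 6.39, had a mean of -0.28 ± 0.34 and was not called either (adjusted p = 0.603). For both genes the difference was within 2 of its standard errors. Pdia4 (ILMN_1249670) was the ER gene that rose: 8.62 and 8.45 in WT against 9.37 and 9.04 in STAT3KO. The log2 differences were 0.76 without IFNa and 0.58 with it, a mean of 0.67 ± 0.17 (log2, limma adjusted p = 0.000264), lost with scaling to the 75th percentile (0.463) and without the intensity trend (0.0861).

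**Figure D2:**
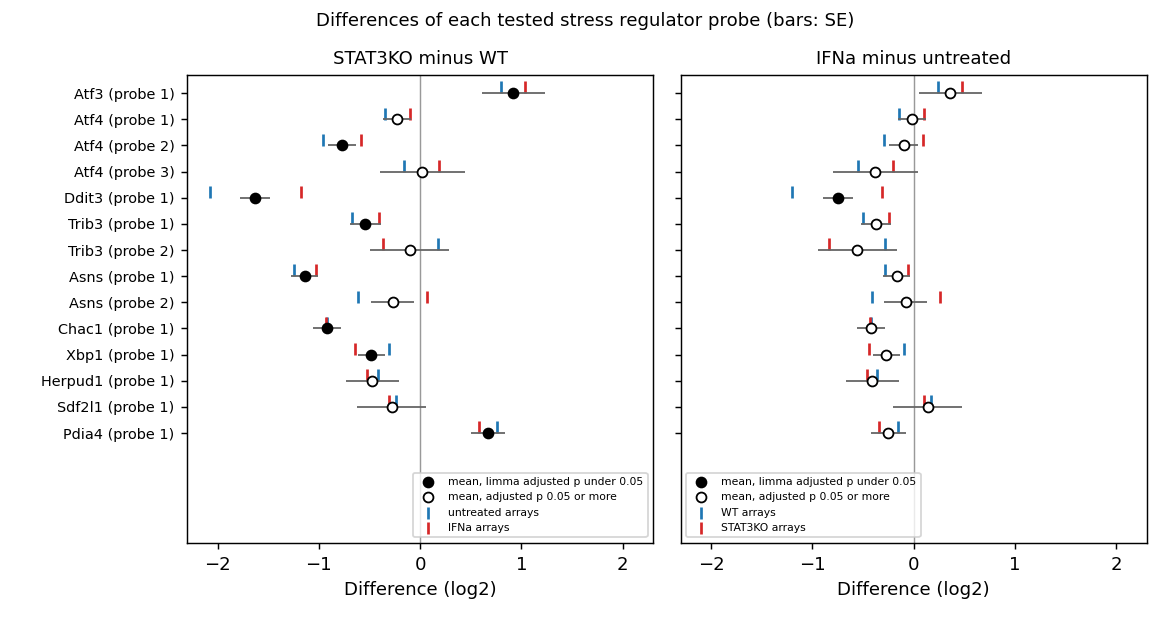
Mean log2 difference (horizontal axis) of the 14 tested probes for STAT3KO minus WT (left) and IFNa minus untreated (right), with limma SE as bars, filled points at an adjusted p under 0.05, and ticks for the single pairs of arrays. For the genotype 6 probes are called lower and 2 higher, and for IFNa only Ddit3 is called, at -0.75.

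The response to IFNa was the other comparison of the design. Ddit3 fell with IFNa, and no other of the 10 genes passed the test. It was 2.29-fold lower with IFNa in WT and 1.24-fold lower in STAT3KO, with a mean of -0.75 ± 0.15 (log2, limma adjusted p = 0.000133). This is 1 of 10 genes called lower, where 0.333% of all detected genes were, and 0 called higher, where 1.03% were (1.36% in either direction). By probe the shares over all tested were 0.219% lower and 0.809% higher. Over the 14 tested probes 4 had an unadjusted p under 0.05, as had 754 of all 19656, and without the intensity trend none of the 14 and 424 of all did.

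The 2 responses of Ddit3 differed by 0.89 on the log2 scale, and by 0.24 with scaling to the 75th percentile, where they were -0.76 in WT and -0.52 in STAT3KO. Its own residual SD was 0.44, larger than the SE of 0.15 that the fit took from other probes of like intensity. The call was lost with scaling to the 75th percentile, without the detection filter (adjusted p = 0.118) and without the intensity trend, and was kept under the other 5 alternatives, over a range of adjusted p from 3.38e-05 to 1.0.

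A difference of 2-fold or more between single arrays, with no test, was reached by few of the 10 genes. With IFNa it was Ddit3 in WT (0.329% of genes lower and 0.998% higher) and none in STAT3KO (0.818% and 1.36%). Between genotypes Ddit3 and Asns were lower without IFNa (9.92% of genes, with 12.5% higher) and with it (10.8%), and Atf3 was higher with IFNa (10.3%).

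The other responses to IFNa were not called. Chac1 came nearest to the test, with responses of -0.42 in WT and -0.43 in STAT3KO (log2, mean -0.42 ± 0.14, limma adjusted p = 0.143). Trib3 was -0.50 and -0.24 (adjusted p = 0.672), Herpud1 -0.36 and -0.46, and Xbp1 -0.10 and -0.44. Asns was -0.28 and -0.06, and Pdia4 -0.16 and -0.34. Atf3 was 0.24 and 0.48 higher and Sdf2l1 0.17 and 0.10 higher, neither called. The brightest Atf4 probe had responses of -0.15 in WT and 0.10 in STAT3KO, which were 0.15 and 0.03 with scaling to the 75th percentile. That scaling also gave Chac1 responses of 0.04 and -0.64.

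These signs depend partly on scaling. Lower with IFNa in both genotypes were 7 of the 10 genes (Ddit3, Trib3, Asns, Chac1, Xbp1, Herpud1 and Pdia4), against 22.6% of 8129 genes detected on all 4 arrays, but with scaling to the 75th percentile 3 of them (Ddit3, Trib3 and Herpud1), against 5.25%. That scaling moved the median response in WT from 0.02 to 0.20 over all probes tested. The direction of the genotype difference on the brightest probes did not turn with it: the brightest probes of 8 of 10 genes were lower in STAT3KO in both treatments in the reported setting, with no background correction, with offset 50, with that scaling and in the authors' normalized values, against 36.8% of genes detected on all 4 arrays in the reported setting.

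The 4 arrays stood in the same order for 6 genes. Ddit3, Trib3, Asns, Chac1, Xbp1 and Herpud1 were each highest in WT untreated, and lower on each further array of the array order. This order held for 8.62% of the 8129 genes detected on all arrays. The same 6 genes held it in the authors' normalized values (8.51% of all genes) and 3 of them, Ddit3, Trib3 and Herpud1, with scaling to the 75th percentile (1.3%). The CARE match was in the windows of 4 of these 6 genes and in that of Atf3, whose arrays ran in the reverse order. Any link of the match to the order was not tested.

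**Figure D3:**
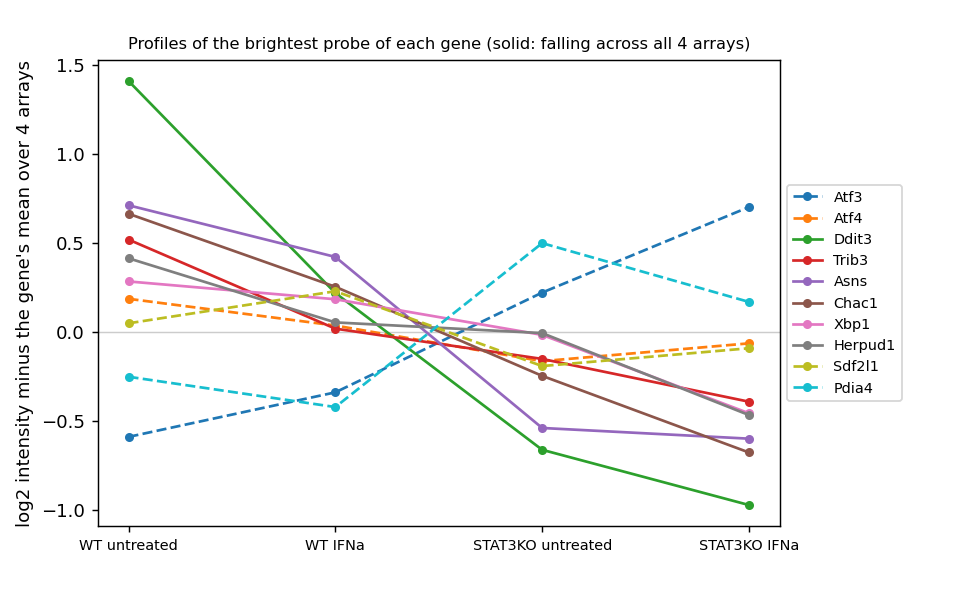
Log2 intensity of the brightest probe of each gene minus its mean over the 4 arrays (vertical axis), with lines joining the values of 1 gene and solid lines for the 6 genes that are lower on each array than on the one to its left. Atf3 runs upward and Pdia4 is highest in STAT3KO untreated.

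Likeness to other genes was measured for Ddit3, Chac1 and Asns, the 3 with the widest range, as the Euclidean distance of centred log2 profiles over the 4 arrays among 8128 other genes detected on all of them. The nearest to Ddit3 were Zfp326 and Tmem63b, both at a distance of 0.44, and Zmiz1 at 0.48. Nearest to Chac1 were Tnk2 at 0.02, Tmem189 at 0.12 and Sgtb at 0.14. Nearest to Asns were Ndufb10, Rspry1 and Sash1, each at 0.07. With 4 arrays a close profile is a description of these arrays. Ddit3 had no gene as near to it as Chac1 and Asns had. The distance was not scaled for range, which was 2.38 for Ddit3, 1.34 for Chac1 and 1.31 for Asns, so the distances are not compared in shape alone.

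Beyond the 10 genes, 116 genes of the same pathways were examined in 7 lists, of which 108 had a probe and 92 were detected. The lists too were chosen with earlier results of these data known, so their shares are no independent test. In STAT3KO 26 of the 92 were lower and 10 higher (limma over all probes), against 20.0% and 23.1% of all genes. Of these 36 calls 7 were kept with scaling to the 75th percentile and 9 without the intensity trend. With IFNa 1 was higher and 4 lower, against 1.03% and 0.333% of all genes. The kinases, phosphatase and exchange factor of eIF2 gave 1 higher and 1 lower of 10 in STAT3KO. PKR (Eif2ak2) was the gene that rose with IFNa, at 8.96, 11.85, 9.80 and 12.70 in array order, a mean response of 2.89 ± 0.13 (log2, adjusted p = 3.22e-107, and 0.0762 without the intensity trend). Its level was also higher in STAT3KO, by 0.84 ± 0.13 (log2, adjusted p = 6.17e-10), and Eif2b3, a subunit of eIF2B, was lower by -0.80. PERK (Eif2ak3) was detected only in STAT3KO untreated, where it was at least 1.86-fold above WT untreated. Its mean difference of 0.88 ± 0.41 was not called (limma adjusted p = 0.0842), and its other probe was detected on no array. Ppp1r15a, the stress-induced phosphatase subunit, had a difference of -0.38 that was not called either (adjusted p = 0.0582).

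Among the unfolded protein sensors and their processing enzymes 1 of 8 was called in STAT3KO, against 43.1% of all genes. This was Atf6b, lower by -0.31 ± 0.13 (log2, limma adjusted p = 0.0452), a call kept under 3 of 8 alternatives. Atf6 (0.30, detected on 1 array) and Mbtps1 and Creb3 (-0.25 and 0.25) were not called. Another Mbtps1 probe was at 1.04 with an adjusted p of 0.0109.

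The regulators and stress targets downstream of ATF4 and CHOP moved most, with 6 of 13 lower and 4 higher in STAT3KO and a median of -0.31. This median is the value of Cebpa, a dim gene detected on 3 arrays and not called (-0.31 ± 0.41, limma adjusted p = 0.651). Over all genes 20.0% were lower and 23.1% higher. Cebpb, a partner of ATF4 and CHOP, was lower by -1.93 ± 0.13, with 12.65 and 12.71 in WT against 10.66 and 10.84 in STAT3KO. Atf5, a relative of ATF4, was lower by -1.66 ± 0.15. Stc2, a secreted glycoprotein, was 3.75-fold lower without IFNa and at least 4.35-fold lower with it, where it was not detected in STAT3KO. Its fitted difference of -2.15 rests in part on that undetected array and came to between -2.15 and -0.87 over the alternatives. Nupr1, a stress-induced chromatin protein, rose instead, from 11.55 and 11.07 in WT to 13.70 and 13.63 in STAT3KO, a mean of 2.35 ± 0.13 (adjusted p = 4.13e-67). These 4 differences were called under each alternative that could be run for them. With IFNa, Ddit4, an inhibitor of mTOR signalling, fell by -0.77 ± 0.15 (adjusted p = 2.9e-05), with -1.04 in WT and -0.50 in STAT3KO. Vldlr, a lipoprotein receptor, fell by -0.61 ± 0.13 and Gadd45a, a growth-arrest gene, by -0.72 ± 0.15 (adjusted p = 0.000584 and 0.000358). These 3 were not called with scaling to the 75th percentile or without the intensity trend (adjusted p = 1.0 in each case), and Vldlr and Gadd45a also not without the detection filter.

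Amino acid supply was mixed, beside shares over all genes of 20.0% lower and 23.1% higher. Of 15 detected genes of amino acid synthesis and transport, 5 were lower and 1 higher in STAT3KO. The mitochondrial folate enzymes Aldh1l2 (-1.65 ± 0.25) and Shmt2 (-0.95 ± 0.14) and the transaminase Gpt2 (-1.05 ± 0.22) were lower. Another mitochondrial folate enzyme, Mthfd2, was at 0.28 ± 0.13 and was not called (limma adjusted p = 0.0871). The glycine transporter Slc6a9 was higher by 0.76 ± 0.13. Dimmer probes were at -0.59 for Aldh1l2, -0.58 for Shmt2 and 0.27 for Slc6a9, none called. Of 18 aminoacyl-tRNA synthetases, 7 were lower and 3 higher. Yars was lower by -1.28 ± 0.37, Hars by -0.86 ± 0.36, Vars by -0.78 ± 0.13 and Farsa by -0.71 ± 0.13, though a second Farsa probe was higher by 0.85 (adjusted p = 0.0414). Over the alternatives the difference came down to -0.45 for Yars, -0.30 for Hars, -0.94 for Aldh1l2 and -0.66 for Gpt2, and the Hars call (adjusted p = 0.0451) was kept under 4 of 8. The median differences of these lists were -0.20 and -0.24.

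Of 15 ER chaperones and folding enzymes 4 were lower and none higher in STAT3KO, against 20.0% and 23.1% of all genes. Dnajb9, a cochaperone induced through XBP1, was lower by -1.23 ± 0.20 and Pdia6, a disulfide isomerase, by -1.19 ± 0.17. Canx, the lectin chaperone calnexin, was lower by -0.68 ± 0.15. Dimmer probes were at -0.51 for Pdia6 and 0.09 for Canx, neither called. Manf, a secreted ER stress protein, was at -0.48 ± 0.34, not called. Hspa5, the main ER chaperone BiP, was at 10.77, 10.53, 10.53 and 10.60 in array order, with a difference of -0.08 ± 0.13 (adjusted p = 0.714). Dnajb9 also fell with IFNa, by -0.84 ± 0.20 (log2, adjusted p = 0.00356), with -0.59 in WT and -1.10 in STAT3KO, a call lost with scaling to the 75th percentile, without the detection filter and without the intensity trend. Of 13 genes of ER degradation and translocation 1 was higher and 2 lower: Edem2, which trims misfolded glycoproteins, rose by 0.65 ± 0.13, and Sec24d, a coat protein of ER export, and Os9, a lectin of ER degradation, were lower by -0.47 and -0.41. A dimmer Edem2 probe, detected on 3 arrays, was at -0.03 and was not called. The translocon subunit Sec61a1 was at 0.29 and was not called.

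**Figure D4:**
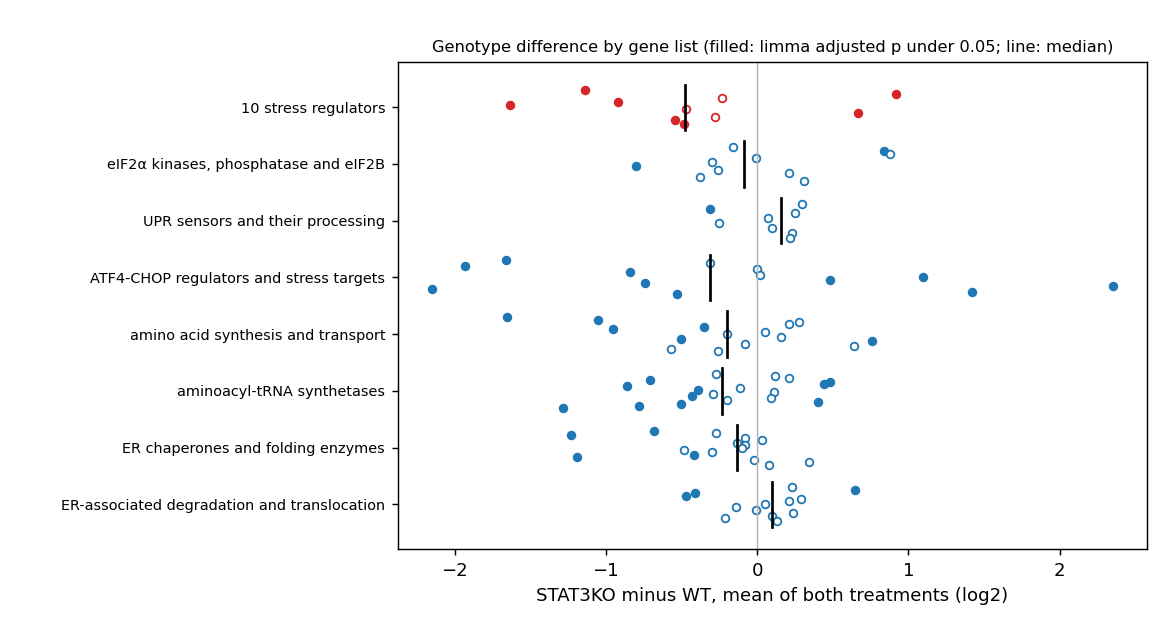
STAT3KO minus WT (horizontal axis, log2, mean of both treatments) for the 10 stress genes and the detected genes of 7 pathway lists (1 point per gene, filled at a limma adjusted p under 0.05, black line at the list median). The list medians run from -0.31 for the ATF4 and CHOP targets (the value of Cebpa, not called) to 0.16 for the unfolded protein sensors. The median of the 10 stress genes is -0.47.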

How the data were processed

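Total RNA of 4 samples was hybridised to Illumina mouse bead arrays and read with BeadStudio 3.2.3, per the submitters' processing notes. The authors deposited a linear intensity and a detection score (a fraction from 0 to 1) for each probe, per the file headers, and 1 minus the score served as the detection p. The opening note of the deposited intensity table, per the file headers, says that the WT untreated columns, intensity and detection, hold normalized data because the non-normalized data were lost. The others are titled non-normalized. How the authors normalized is not stated in the labels.

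Using R 4.3.3 and limma 3.58.1, background was removed by normexp (offset 16, from detection p), and values were quantile-normalized and taken to log2. An additive model of both factors, with eBayes, an intensity trend and 1 residual degree of freedom, covered 19656 probes detected on at least 1 array. For gene counts the probe with the highest mean stood for its gene. Of 46632 probes, 29976 had 1 gene symbol, 10 several and 16646 none, and symbols were updated with RefSeq's GRCm38.p6 table, by Entrez ID for 29921. Differences of single arrays have no test. Against an undetected array a fold is a lower bound, "at least": the divisor is the dimmest detected probe of that array, or the value of the probe itself if larger. The genes and lists were chosen with earlier results of these data known. Named were all probes of the 10 genes, Stat3, Eif2ak2, Hspa5, markers and nearest profiles. In each list up to 4 genes with the largest genotype difference and any called for IFNa were named. Tnfrsf10b, Fgf21, Cebpa and Mthfd2 were named outside this rule. Precision is limited by the number of arrays. Alternatives were other background corrections, scaling, the authors' normalized values, other detection filters, no intensity trend and 1 probe per gene.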

Additional observations from a re-analysis of the deposited data

Results flagged for a closer look

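The responses to IFNa had opposite signs in the genotypes for 3 probes detected on all 4 arrays, with 1 array per group, so the difference was not tested. STAT3KO minus WT response was 0.24 on the log2 scale for the brightest Atf4 probe (ILMN_2642681) and 0.38 for the second (ILMN_1223734). It was 0.67 for the dimmer Asns probe (ILMN_2636755), whose response was -0.41 in WT and 0.26 in STAT3KO. These values depend on the scaling. With scaling to the 75th percentile the difference was -0.11 for the first probe, where both responses were positive (0.15 and 0.03), and -0.31 for the second, where both signs turned. For the Asns probe it was 0.16, from responses of -0.08 and 0.08.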

How the results depend on the processing

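Over all probes, the genotype calls were 3700 higher and 3338 lower. Scaling to the 75th percentile gave 1335 and 1314, omitting the intensity trend 1851 and 1681, and using 1 probe per gene 2423 and 2085. The IFNa calls were 159 higher and 43 lower: 76 and 3 with that scaling, 93 and 22 with 1 probe per gene, 0 and 0 without the trend (424 of 19656 probes at an unadjusted p under 0.05, against 754 with it), 99 higher among probes detected on all 4 arrays, and 11 lower without a detection filter. For the 14 tested probes of the stress genes, the genotype calls of 2 higher and 6 lower became 0 and 1 with that scaling and 1 and 3 without the trend, and the IFNa call of 1 lower became 0 with that scaling, without the filter and without the trend. Fewer probes were tested with 1 probe per gene. The cause of the other changes was not tested.

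Among the 10 genes, past 2-fold in single pairs of arrays, 1 was lower with IFNa in WT (0 with that scaling). Between genotypes under IFNa, 1 was higher in STAT3KO (0 with no background correction, with offset 50, with that scaling and in the authors' normalized values). In the same pair 2 were lower (1 in the authors' values). That scaling put Ddit3 at -1.45, Asns at -1.41 and Chac1 at -1.25 there, all past 2-fold lower, and Xbp1 at -1.0. Between genotypes without IFNa 0 were higher (1 with that scaling). Lower with IFNa in WT were 8 of 10, and 3 with that scaling, and the response was lower in STAT3KO than in WT for 5, and 8 with that scaling. Over all probes tested the median response in WT was 0.02, and 0.20 with that scaling. The median difference of responses over them was -0.08 in the reported setting. The shares of all genes with these signs were not counted. Leaving out the WT untreated array, an alternative added after seeing the data, kept 8 of 10 genes lower in STAT3KO and left 7 lower with IFNa, against 8. Without that array the genotype difference is that of the IFNa arrays, and the IFNa response that of the STAT3KO arrays. Both pairs of arrays are given above, so these counts are no separate check on that array. No paired analysis was possible because each group is 1 array. Signal limits the dim probes: the SE was 0.31 for Atf3 and 0.34 for Sdf2l1, against 0.13 for Asns on its brightest probe.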
